A study of Mus musculus with 6 samples.

Results

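The synaptonemal complex and meiotic cohesin genes are 7 genes, Sycp1, Sycp2, Sycp3, Syce1, Syce2, Tex12 and Smc1b, chosen by name from the platform annotation. All 7 were found, on 8 of the 20914 probes with a gene name and among 18535 named genes, and Sycp2 had 2 probes. Their transcripts were measured in total RNA from mouse testis, from epididymis and from SVF, the stromal vascular fraction of fat, which is a mix of its cells other than adipocytes. Each pair of tissues was hybridised on 2 two-colour arrays with Cy3 and Cy5 exchanged, which gives 6 arrays in 3 dye swaps. The design text speaks of 3 distinct RNA samples, which is 1 a tissue. Strain, age, treatment and the number of animals behind each RNA were not stated in the labels used here.

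The synaptonemal complex is the zipper that holds homologous chromosomes together in the prophase of the first meiotic division. Its lateral elements, with SYCP2 and SYCP3, run along each chromosome axis, its transverse filament is made by SYCP1, and its central element holds SYCE1, SYCE2 and TEX12. The axis is built on cohesin, a ring that holds sister chromatids, and SMC1B is the germline form of the SMC1 subunit of that ring. In adult males these proteins belong to spermatocytes of the testis. Epididymis, the duct in which spermatozoa mature, and SVF hold no meiotic cells.

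The bases before the starts of the members are shown because germline silencing in somatic cells is known to act at promoters of genes of this kind. A complex that holds E2F6, MAX and MGA takes part, and MAX and MGA in it bind the E-box. The lines give the 250 bases before the RefSeq start in the mouse assembly GRCm38.p6 for 4 members. Of these, 3 were far higher in testis than in SVF, while the Sycp3 ratios followed the dye and gave no order of the tissues. Capitals mark CACGTG, the E-box, and TCCCGC, the E2F6 core, or its reverse complement. No binding or methylation was measured here.
Smc1b, chr15:85131958-85132207, minus strand: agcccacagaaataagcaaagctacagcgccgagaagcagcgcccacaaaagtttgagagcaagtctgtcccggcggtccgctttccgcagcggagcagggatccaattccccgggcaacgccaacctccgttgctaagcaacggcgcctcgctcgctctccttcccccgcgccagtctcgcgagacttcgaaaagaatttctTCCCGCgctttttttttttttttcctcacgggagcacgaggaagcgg
Sycp1, chr3:102936101-102936350, minus strand: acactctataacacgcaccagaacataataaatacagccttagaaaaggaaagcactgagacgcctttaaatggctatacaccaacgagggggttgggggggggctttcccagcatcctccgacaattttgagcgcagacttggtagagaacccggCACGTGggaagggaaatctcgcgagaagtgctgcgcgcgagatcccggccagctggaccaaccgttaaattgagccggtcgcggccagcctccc
Tex12, chr9:50561269-50561518, minus strand: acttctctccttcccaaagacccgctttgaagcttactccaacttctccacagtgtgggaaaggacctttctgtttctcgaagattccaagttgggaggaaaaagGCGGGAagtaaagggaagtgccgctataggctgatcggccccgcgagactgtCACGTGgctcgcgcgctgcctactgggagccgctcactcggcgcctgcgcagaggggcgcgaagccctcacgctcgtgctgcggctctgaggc
Sycp3, chr10:88459337-88459586, plus strand: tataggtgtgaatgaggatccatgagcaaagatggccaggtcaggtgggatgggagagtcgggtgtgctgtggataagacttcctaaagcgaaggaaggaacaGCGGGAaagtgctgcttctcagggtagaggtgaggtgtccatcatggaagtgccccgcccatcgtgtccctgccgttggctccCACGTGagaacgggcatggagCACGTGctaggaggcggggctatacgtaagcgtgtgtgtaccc

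All 7 members were matched by symbol, with 8 windows because Syce2 has 2 starts. The E-box letters CACGTG, which read the same on both strands, stood before the starts of 4 of 7 genes, Sycp1, Sycp3, Syce2 and Tex12. They were in 4 of the 8 member windows, while 6.02% of all 32851 windows of this length held them. In Sycp1, Tex12 and the second window of Syce2 they began at -94, -93 and -88, counted from the start, and in Sycp3 at -64 and -43. The letters TCCCGC, on either strand, stood before 4 genes, Sycp3, Syce2, Tex12 and Smc1b, in 5 of the 8 windows against 16.9% of all windows. Both motifs occurred in Sycp3, Syce2 and Tex12, and neither in Syce1 or Sycp2. The cyclic AMP response element TGACGTCA was in none of the 8 windows and in 1.55% of all. The MYB letters TAACNG were before 3 genes (4 of 8 windows, 19.8% of all windows), and the 2 overlapping Syce2 windows hold the same site. CAACNG was before 3 genes (3 of 8 windows, 29.3% of all), and in Sycp1 a match of each overlapped. The member windows held 7 to 25 CG dinucleotides, with a median of 15, against a median of 6 over all windows. CACGTG and TCCCGC contain CG, and the shares of all windows were not matched for CG count. These matches describe letters only.

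**Figure D1:**
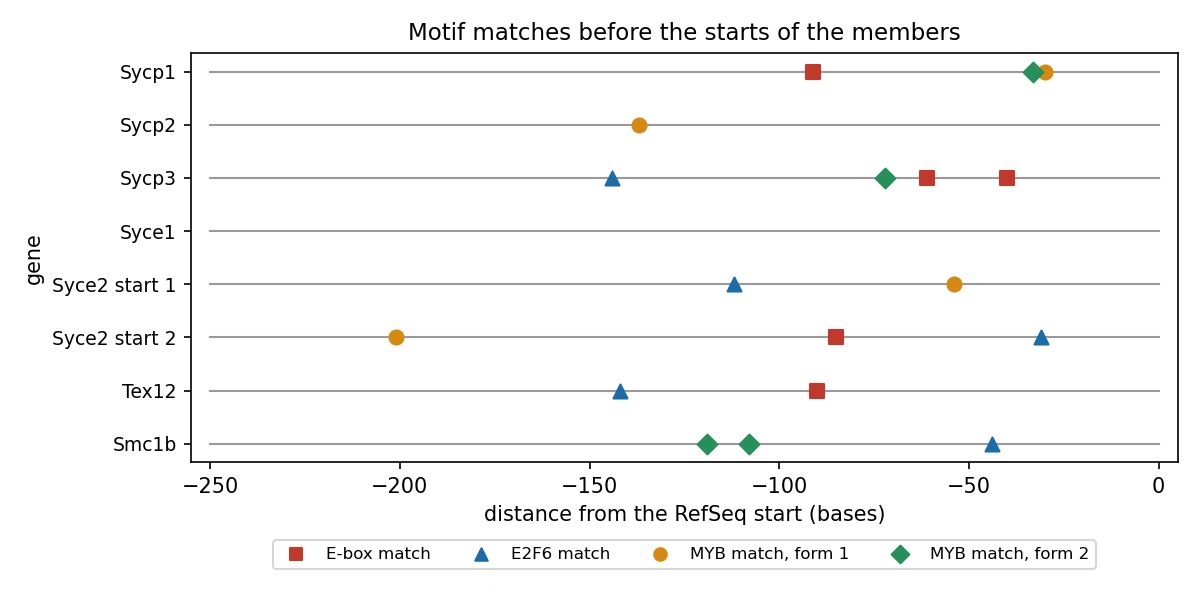
Matches of 4 motif spellings in the 250 bases before each RefSeq start, with the distance from the start in bases on the x axis and a line for each window, Syce2 having 2. Squares mark E-box matches in 4 genes, triangles E2F6 core matches in 4 genes, circles and diamonds the MYB forms TAACNG and CAACNG, and the Syce1 line is empty.

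The first comparison sets testis, which holds meiotic cells, against SVF. The labelled tissues carried their markers. Of 9 measured genes listed as Leydig or Sertoli cell markers, 7 were called toward testis against SVF, and the other 2 were Sox9 and Amh. All 8 SVF markers were called toward SVF against testis, and all 6 measured epididymal secretory markers were higher in epididymis than in either other tissue. A gene is called higher where its log2 ratio was at least 1, or 2-fold, on both arrays of a pair. A single RNA sample for each tissue allows no test, and means ± SD (n = 2 hybridisations) show dye and hybridisation error, with no spread between animals. Over all genes the median of this SD was 0.33 for testis and SVF, 0.35 for testis and epididymis and 0.37 for epididymis and SVF. Ratios are taken as log2 of Cy5 over Cy3, the tissue that titles name first, and read this way the markers above lay on the side of their own tissue, other than Sox9 and Amh. The medians were -4.96 for SVF markers and 3.81 for testis somatic markers in testis over SVF, and 6.99 for epididymal markers in epididymis over SVF. With the sign turned, all 8 SVF markers would be higher in testis than in SVF, and all 6 epididymal markers lower in epididymis than in either other tissue. Testis and epididymis are bulk tissues, in which fewer cells of a type and less RNA per cell cannot be told apart.

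Of the 7 members, 5 were called toward testis and none toward SVF, where 20.7% of all named genes were called toward testis and 16.0% toward SVF. These 5 were 18.6-fold to 98.6-fold higher in testis, and each passed 4-fold on both arrays, as did 12.1% of named genes toward testis and 7.61% toward SVF. The median of the members was 4.78 on the log2 scale, and that of all genes was 0.00. Sycp2 and Sycp3 were not called.

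Smc1b, the cohesin subunit, had log2 ratios of testis over SVF of 6.89 with testis in Cy5 and 6.36 with the dyes exchanged. The mean of 6.62 ± 0.38 ranked 4 among 18535 genes, a 98.6-fold difference. It was the highest member on each of the 2 arrays, though on the mean it exceeded Sycp1 by less than the SD of Sycp1.

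The transverse filament gene Sycp1 read 6.56 and 4.59, a mean of 5.58 ± 1.39. Its rank was 80, and its 2 arrays lay further apart than those of most genes, as 95% of genes had an SD of at most 1.33. Testis was the higher tissue on both arrays, 47.7-fold on the mean.

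The central element genes came next. Tex12, the partner of SYCE2 in a fibrous assembly, read 6.61 and 4.37 (mean 5.49 ± 1.59), the widest gap of the members here. Syce1 read 4.93 and 4.63 (mean 4.78 ± 0.21) and was 27.5-fold higher in testis. Syce2 read 4.25 and 4.19 (mean 4.22 ± 0.04), 18.6-fold higher. Syce2 and Syce1 thus had the tightest pairs of arrays among the called members, and the order Tex12, Syce1, Syce2 held on the first array, while on the second Syce1 stood above Tex12. The difference between Tex12 and Syce1 is within the SD of Tex12.

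The lateral element genes gave no single reading. Sycp3, a main component of the lateral element, read 0.55 and -1.02 in testis over SVF, a mean of -0.23 ± 1.11, so the arrays differed in direction. On all 6 arrays the Cy5 channel was the brighter one for Sycp3, by 0.55 to 1.56, whichever tissue it carried. Cy5 was brighter on all 6 arrays for 3.35% of genes, and by at least 0.55 on each for 0.248%. The other 6 members were brighter in Cy5 on 3 arrays and in Cy3 on 3. The Sycp3 ratios therefore followed the dye and gave no order of the tissues. Spot intensities were not analysed here, so whether this probe was above background in any tissue is not known.

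Sycp2, the partner of SYCP3 in the lateral element, had 2 probes that disagreed. The probe annotated to a RefSeq transcript read -1.0 and -1.04 in testis over SVF, a mean of -1.02 ± 0.03 whose first value lay just short of the size rule toward SVF. The probe annotated to another cDNA read 1.95 and 3.04, a mean of 2.5 ± 0.77, or 5.64-fold higher in testis. The gap of 3.51 between the probes compares with a median gap of 1.06 over the 1453 genes with 2 probes, of which 7.43% had a gap at least as large. The mean of both probes, 0.74 ± 0.37, averages opposite readings.

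**Figure D2:**
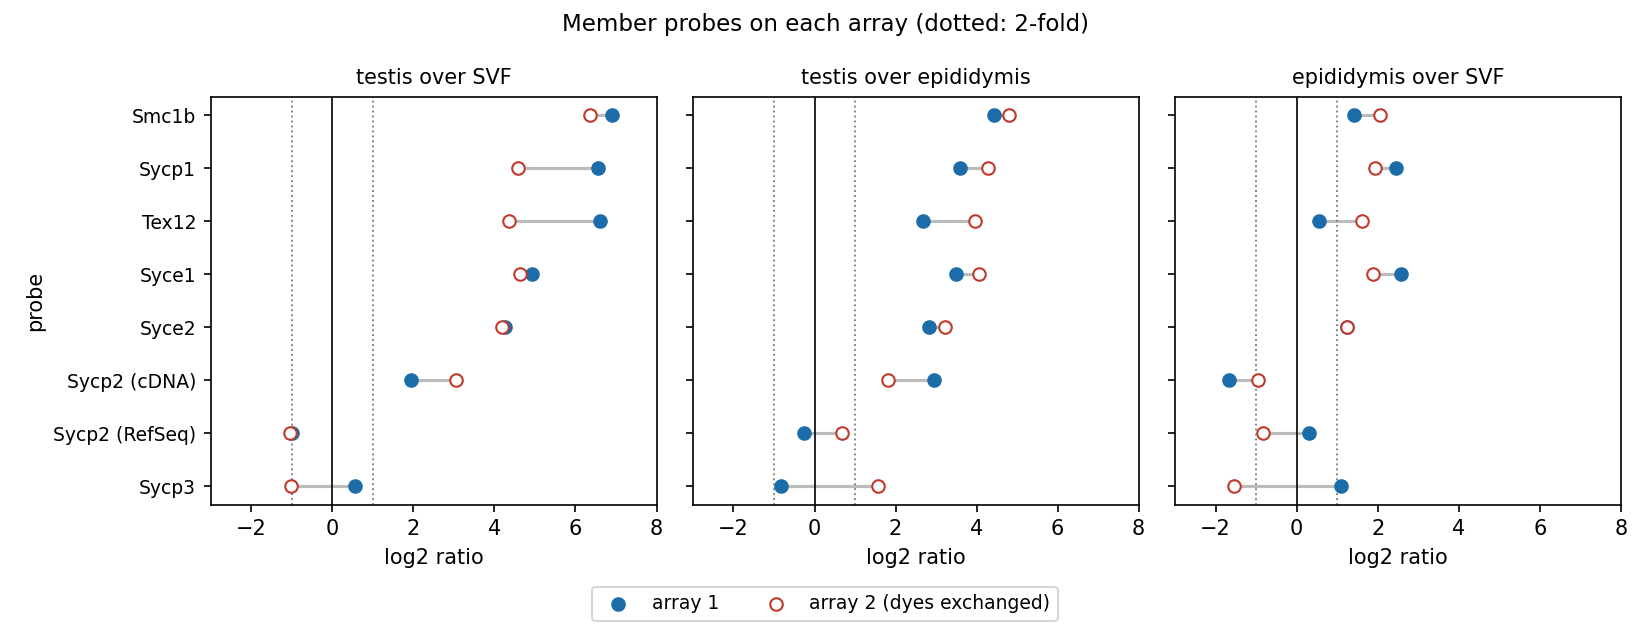
Log2 ratio of each of the 8 member probes on the first (filled) and the dye-exchanged (open) array of the 3 tissue pairs, with dotted lines at 2-fold. The upper 5 probes lie right of 2-fold on both arrays in both testis panels, the 2 Sycp2 probes lie apart in testis over SVF, and the Sycp3 points fall on both sides of 0 in all 3 panels.

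The second comparison sets testis against epididymis. Of the 7 members, 6 were higher in testis and none was lower, where the shares of named genes were 18.0% toward testis and 14.3% toward epididymis. The median of the members was 3.32 and that of all genes 0.00. Ratios were smaller than over SVF for the 5 members that were called in both. These comparisons share the testis RNA and are not independent of each other.

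Smc1b was again the highest, with 4.43 where epididymis was in Cy5 and 4.81 where testis was (mean 4.62 ± 0.26), and it ranked 16. Sycp1 read 3.58 and 4.27 (mean 3.92 ± 0.48) and was 15.2-fold higher in testis. Syce1 read 3.48 and 4.05 (mean 3.77 ± 0.40). The gap between Sycp1 and Syce1 is below the SD of either gene.

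Tex12 read 2.67 and 3.96 (mean 3.32 ± 0.91), and Syce2 read 2.83 and 3.21 (mean 3.02 ± 0.26), an 8.12-fold difference. These neighbours also lay within the SD of Tex12. All 5 of these genes passed 4-fold on both arrays, against 9.61% of named genes toward testis and 5.0% toward epididymis. Sycp2 was called on the mean of its probes, at 1.30 ± 0.07, where its RefSeq probe read -0.27 and 0.67, not called, and its other probe 2.96 and 1.82. Sycp3 read -0.83 and 1.56 (mean 0.37 ± 1.69), in opposite directions.

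The third comparison sets epididymis against SVF, 2 tissues without meiosis. Of the 7 members, 4 were higher in epididymis and none was higher in SVF, where the shares of named genes were 10.2% toward epididymis and 8.68% toward SVF. The 4 were Syce1, Sycp1, Smc1b and Syce2, from 2.37-fold to 4.70-fold. The median of the members was 1.24 and that of all genes 0.07. None passed 4-fold on both arrays, which 2.7% of named genes did toward epididymis and 3.64% toward SVF.

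Syce1 read 2.58 and 1.88 in epididymis over SVF (mean 2.23 ± 0.50), and Sycp1 read 2.45 and 1.93 (mean 2.19 ± 0.37). Smc1b, the highest member in testis, read 1.42 and 2.05 (mean 1.74 ± 0.45). Syce1 and Sycp1 differed by less than the SD of either, and Sycp1 exceeded Smc1b by about the SD of Smc1b. Syce2 read 1.24 on both arrays (mean 1.24 ± 0.00).

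Tex12 read 0.55 and 1.62 (mean 1.09 ± 0.76) and was not called because its first array was below 2-fold. Both Sycp2 probes had means toward SVF, at -0.26 ± 0.82 for the RefSeq probe and -1.31 ± 0.52 for the other, and neither was called. Sycp3 read 1.09 and -1.55 (mean -0.23 ± 1.87).

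Other lists were read in the same epididymal RNA. Among 24 genes of late spermatids, 18 were called toward epididymis against SVF (median 1.84, range -0.17 to 2.76). Among 9 genes listed as testis somatic markers, 3 were called (median 1.18). The share of all named genes was 10.2%. The lowest of the 9, Amh (-0.43 ± 0.50), Star (-0.01 ± 0.78) and Hsd3b1 (0.61 ± 1.43), were not called. Cyp17a1, among the highest, read 1.92 and 0.98 (mean 1.45 ± 0.66) and was just short of a call. Of the 3 called, Tsx stood at 1.67 ± 0.13 and Aard at 2.15 ± 0.37, and both were also called toward testis against epididymis. Which testis cells gave the Tsx signal was not tested. The third, Sox9, at 1.29 ± 0.06 and named after its value was seen, was not a testis-high gene here, with -0.52 and -1.30 in testis over epididymis. The part of sperm RNA, or of testis RNA, in the epididymal values of the members was not tested.

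The loop of 3 pairs gives a level for each gene in each tissue, by least squares over all 6 arrays with SVF set to 0. On this log2 scale testis stood at 6.53 for Smc1b, 5.76 for Sycp1, 5.19 for Syce1, 5.13 for Tex12 and 4.23 for Syce2. Epididymis lay between at 1.83, 2.01, 1.82, 1.45 and 1.23 in the same order. Each of these 5 genes thus had the order testis, epididymis, SVF. For Sycp2, as a mean of discordant probes, testis stood at 0.66 and epididymis at -0.71, and for Sycp3 at -0.11 and -0.35, within the error of its arrays.

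The direct ratio of testis over SVF should equal the sum of the other 2, and over all genes the difference had an SD of 0.56, with 92.4% of genes within 1. It was -0.05 for Syce2, 0.23 for Sycp2, 0.27 for Smc1b, -0.37 for Sycp3 and -0.54 for Sycp1. It was -1.22 for Syce1 and 1.09 for Tex12, larger than for most genes. The loop estimate moved Syce1 up from 4.78 to 5.19 and Tex12 down from 5.49 to 5.13, so that the order of these 2 genes turned.

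**Figure D3:**
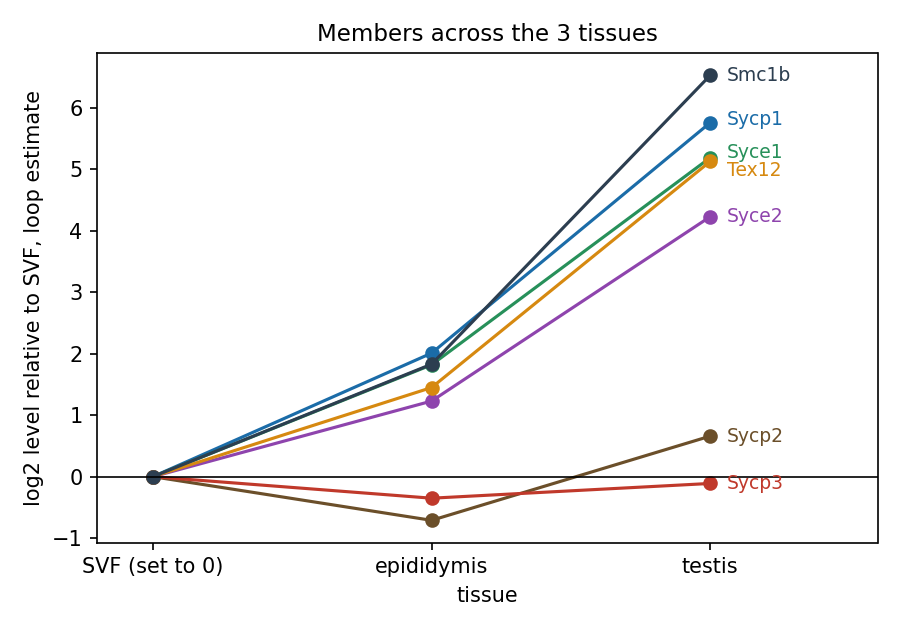
Log2 level of each member relative to SVF, set to 0, by the least-squares estimate over 6 arrays, with the tissues on the x axis and no replicate error because each tissue is 1 RNA sample. Smc1b, Sycp1, Syce1, Tex12 and Syce2 lie at 4.23 to 6.53 in testis and 1.23 to 2.01 in epididymis, and Sycp2 and Sycp3 stay within 1 of SVF.

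The other structural genes of the complex were read from a list of 14, of which 10 were measured. Of these, 8 were called toward testis against SVF and 8 against epididymis, with none the other way and medians of 2.51 and 2.05. Among all named genes the shares toward testis were 20.7% and 18.0%, and those the other way 16.0% and 14.3%. Terb1, which ties telomeres to the nuclear envelope, stood at 5.26 ± 0.12 in testis over SVF. Of 2 further central element genes, Syce3 read 5.02 and 4.69 (mean 4.85 ± 0.24), close to the 4.78 of Syce1. The other, Six6os1, measured under the symbol 4930447C04Rik and named after its value was seen, read 3.11 and 1.40 (mean 2.26 ± 1.21) and was called. The axis gene Hormad2 stood at 3.58 ± 1.35. The lowest were Terb2 (0.29 ± 0.36) and Sun1 (1.44 ± 0.92), a nuclear envelope gene also used outside meiosis, neither of them called. Trip13, the ATPase that removes HORMAD proteins from synapsed axes, was called at 1.61 ± 0.28. In epididymis over SVF only Syce3 was called, at 1.39 ± 0.07 (list median 0.61), where 10.2% of all named genes were called. That count of 1 became 4 by the loop estimate, 3 without the first array of the pair and 2 without the second.

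Among germline cohesin and associated genes other than Smc1b, 3 of the 4 measured, of 5 listed, were called toward testis against SVF. The share of all named genes was 20.7%. The subunit gene Stag3 stood at 3.39 ± 0.90, Sgo2a, which encodes a protector of centromeric cohesin, at 2.68 ± 0.11, and Meikin, a meiotic kinetochore gene, at 4.06 ± 0.01. The kleisin gene Rec8 read 1.14 and 0.75 (mean 0.95 ± 0.28) and was not called. The same 3 were higher in testis than in epididymis, where 18.0% of all named genes were called toward testis. None of the 4 was called in epididymis over SVF, against 10.2% of all named genes. With the first array of that pair left out, 2 passed 2-fold.

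Cohesin genes used in all dividing cells were called on both sides. Of 15 measured subunit and regulator genes, 7 were called toward testis against SVF and 2 toward SVF, with a median of 0.98. The shares of all named genes were 20.7% toward testis and 16.0% toward SVF, so the 2 toward SVF lay near their share. Against epididymis, 3 were called toward testis, near the 18.0% of all named genes, and 1 toward epididymis, where the share was 14.3%. Those 3 became 5 by the loop estimate. Smc1a, the general counterpart of Smc1b, read -3.39 and -2.40 in testis over SVF (mean -2.89 ± 0.70), or 7.44-fold higher in SVF. It also read -1.57 and -2.46 in testis over epididymis (mean -2.01 ± 0.63). Smc1a and Smc1b thus stood on opposite sides in both testis comparisons, on all 4 arrays that carried testis. The loader gene Nipbl was the highest at 3.39 ± 0.71, followed by Pds5a (2.25 ± 0.13) and Stag2 (2.18 ± 0.07), while the deacetylase gene Hdac8 stood at -1.66 ± 0.14.

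Meiotic recombination genes, whose products make and repair the breaks on the same axes, were called toward testis for 11 of the 18 measured, of 33 listed, against SVF (median 2.26) and for 11 against epididymis (median 2.47). None was called the other way. The shares of all named genes were 20.7% and 18.0% toward testis, and 16.0% and 14.3% the other way. Spo11, which makes the breaks, stood at 4.34 ± 0.45, Tex15 at 4.17 ± 0.32 and Psmc3ip, a partner of the strand exchange enzymes, at 3.95 ± 1.20. The lowest were Mei4 (-0.60 ± 0.32), Mnd1 (-0.26 ± 0.58) and Zcwpw1 (0.55 ± 0.39). In epididymis over SVF 4 of 18 were called (median 0.12), where 10.2% of all named genes were called and their median was 0.07.

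Lists for other stages of spermatogenesis gave the setting. Genes of spermatogonia and of entry into meiosis were called toward testis against SVF for 3 of 15 (median 0.06), a share near the 20.7% of all named genes, with Stra8, the retinoic acid target that starts meiosis, at -0.14 ± 1.02 and named after its value was seen. Pachytene spermatocyte genes were so called for 15 of 19 (median 3.57), led by Piwil1 at 5.77 ± 0.27, and late spermatid genes for 22 of 24 (median 4.32). The other 4 called members lay within the ranges of both of these lists, while Smc1b, at 6.62, lay above their highest values, 5.77 in each. In testis over epididymis the counts were 3 of 15, 15 of 19 and 19 of 24, with medians of 0.16, 2.84 and 3.14, where 18.0% of all named genes were called. There 2 of the 15 genes of the first list were called toward epididymis, Gfra1 at -3.63 ± 0.29 and Etv5 at -1.47 ± 0.40, and none of the other 2 lists. In epididymis over SVF the counts were 3 of 15, 7 of 19 and 18 of 24, against 10.2% of all named genes, and the first became 5 of 15 with the first array of the pair left out. No difference between lists was tested.

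**Figure D4:**
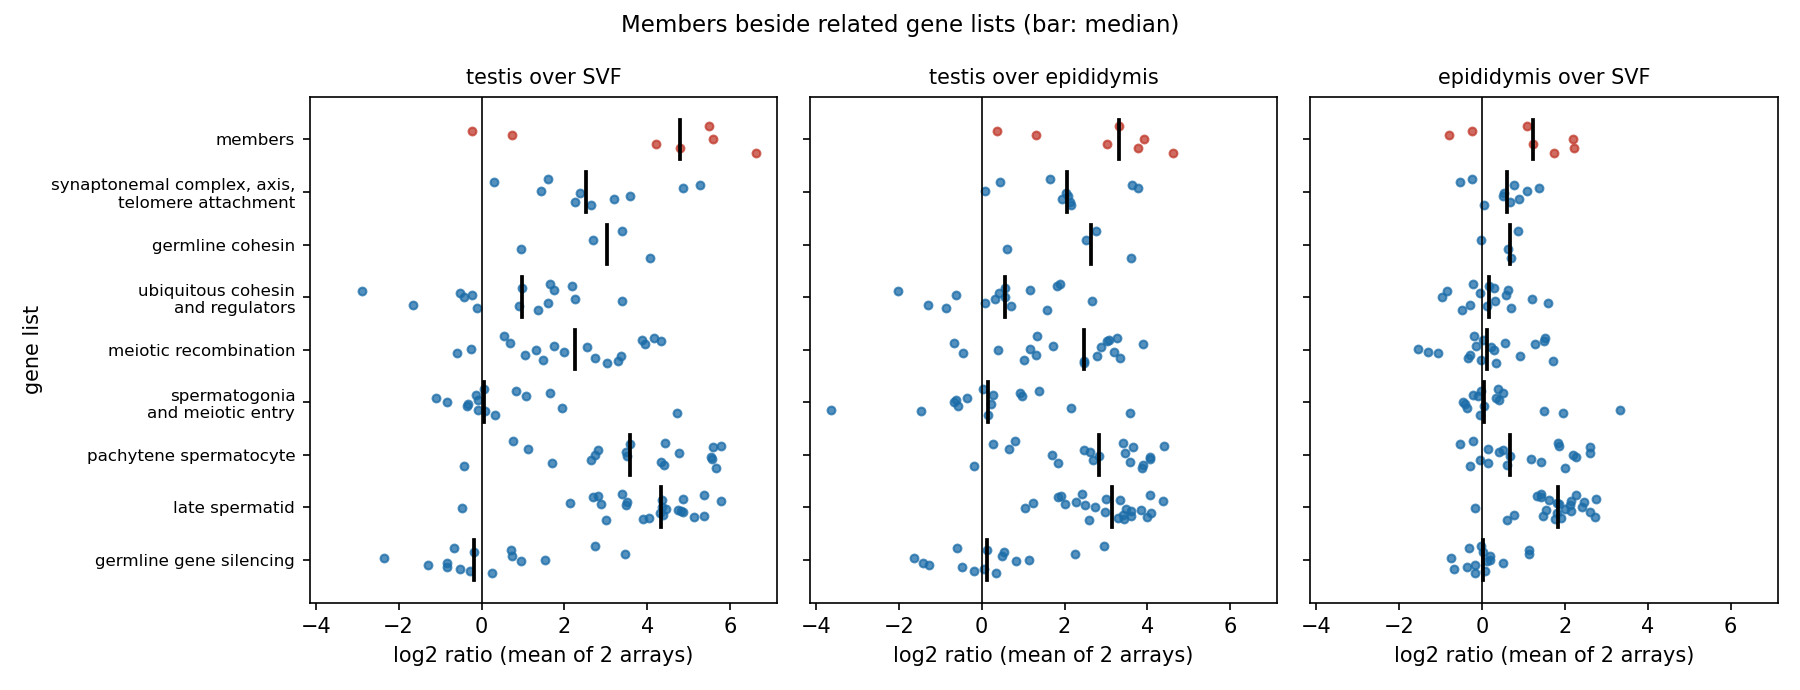
Mean log2 ratio of each measured gene of the members (red) and of 8 related lists (blue) in the 3 comparisons, with a black bar at the median. The member medians are 4.78, 3.32 and 1.24, the late spermatid medians 4.32, 3.14 and 1.84, and the ubiquitous cohesin genes lie on both sides of 0.

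Among the members themselves, Sycp1 and Syce1 were the most alike, with a Euclidean distance of 1.65 over the 6 turned log2 ratios. Syce1 and Syce2 followed at 2.00 and Sycp1 and Tex12 at 2.16. Smc1b was nearest to Sycp1, at 2.30. The pair furthest apart was Sycp3 and Smc1b, at 12.08. Sycp2 and Sycp3 were nearer to each other, at 3.54, than to any other member. As Sycp2 averages discordant probes and Sycp3 followed the dye, this distance shows no shared pattern over the tissues.

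The mean profile of the 7 members was 3.88 in testis over SVF, 2.90 in testis over epididymis and 1.07 in epididymis over SVF, and Syce2 lay nearest to it among members (0.89). The genes outside the group that lay nearest were Nudt18 (distance 0.33), Carf (0.37), Ppp1r32 (0.42), Tmem202 (0.45), Thnsl1 (0.47), Dynlrb2, Lrrc57 and Tex19.2 (0.48 each). Their testis over SVF ratios ran from 3.66 to 4.12. The profile averages the 5 high members with Sycp2 and Sycp3, so it lies below each of the 5 in testis over SVF.

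**Figure D5:**
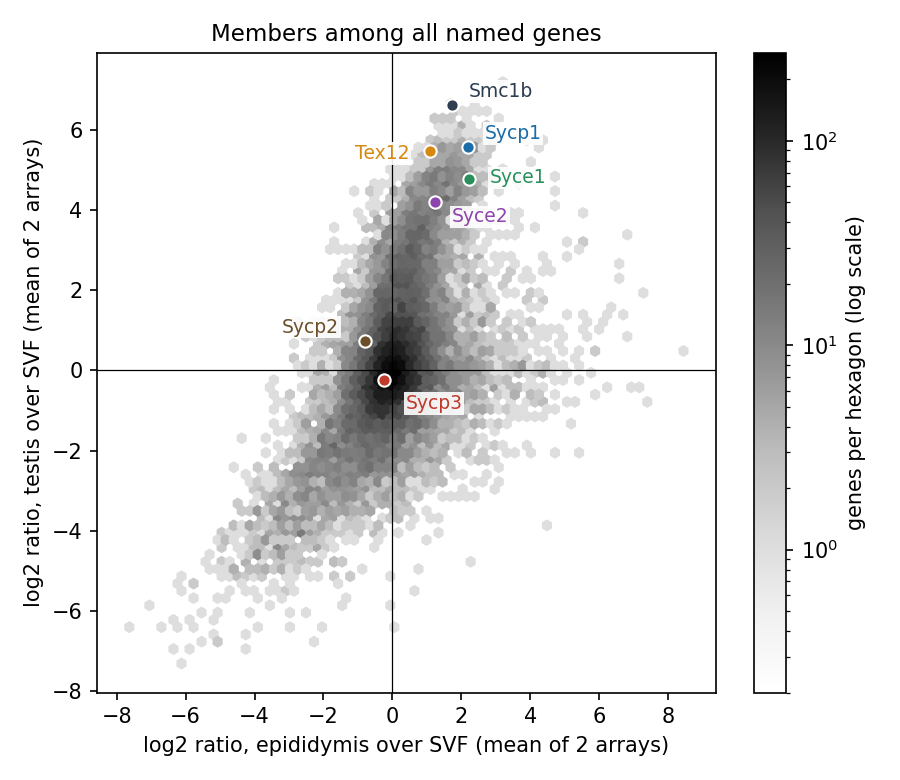
Log2 ratio of testis over SVF against epididymis over SVF, both as means of 2 arrays, for 18535 named genes (shade, genes per hexagon on a log scale) and the 7 members (points). Smc1b, Sycp1, Tex12, Syce1 and Syce2 lie at the top, at 4.22 or more in testis over SVF, and Sycp2 and Sycp3 lie near the centre, with both axes sharing the SVF RNA.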

How the data were processed

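Total RNA of 3 mouse tissues was compared on 6 two-colour arrays, and the labels name Qiagen for extraction and Ambion for labelling. The deposited table holds 1 log ratio for each of 25344 probes and 6 arrays, read as log2. How the authors corrected background and normalized, the base of their logarithm and its direction were not stated in the labels used here, and neither spot intensities nor array flags were analysed. Deposited values ran from -8.41 to 10.25, and the 2 arrays of a pair correlated across probes at -0.86, -0.77 and -0.64, so the exchanged array was turned in sign. The column medians were 0.01 and 0.04 for testis and SVF, 0.05 and 0.01 for testis and epididymis, and 0.11 and 0.01 for epididymis and SVF. The direction was taken from the titles, and most tissue markers lay on that side. The log2 base is by convention.

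Probes were named through the platform annotation and the RefSeq genes of GRCm38.p6, 20456 by gene ID, 220 by symbol and 238 by the annotated symbol. Probes with several genes (30), with an unmatched symbol in capitals (168) or with no annotation row (4232) were not named. A gene's value is the mean over its probes. The arrays of a dye swap count as 1 replicate. Members and lists were chosen with earlier results of these data known. Named genes were all members, any gene of a list with 8 or fewer measured genes, otherwise the 3 highest and 3 lowest of a list, and the 8 genes nearest to the members' mean profile. Stra8, Six6os1, and Sox9 in epididymis over SVF were named after their values were seen. Promoters are from RefSeq, GRCm38.p6. The size rule and loop estimate were tested on simulated data with independent noise on each array. Dye effects of single genes, such as that of Sycp3, were not simulated. Python 3.11.15, pandas 2.3.3 and numpy 2.4.6 were used. The number of arrays limits the precision of each ratio, and 1 RNA sample a tissue leaves the spread between animals unknown.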

Additional observations from a re-analysis of the deposited data

How the results depend on the processing

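Member counts of 5, 6 and 4 (testis over SVF, testis over epididymis, epididymis over SVF) kept within 1.5 times under median centring, the loop estimate, single probes, 2-fold on the mean, natural logarithms and genes with values on all 6 arrays. At 4-fold on both arrays they were 5, 5 and 0. With 1 array left out they ran from 5 to 6, from 6 to 7 and were 5 in epididymis over SVF each time. The gain in testis over epididymis was Sycp3. In epididymis over SVF it was Tex12 with the first array left out and Sycp3 with the second. Member medians of 4.78, 3.32 and 1.24 were 6.89, 4.78 and 1.79 if the deposited values are natural logarithms. With 1 array left out they ran from 4.37 to 4.93, from 2.83 to 3.96 and from 1.24 to 1.62. Among single members, only Sycp2 in testis over SVF (from -1.02 to 2.5, by its 2 probes) and Sycp3 in all 3 comparisons changed sign under any of these alternatives. List counts, whose alternatives were chosen after seeing the data, fell by more than 1.5 times at the stricter 4-fold for 11 of 24, among them late spermatid genes in epididymis over SVF, from 18 to 5. They rose by more than 1.5 times for 4 of 24 each by the loop estimate, 2-fold on the mean and natural logarithms, and for up to 5 of 8 lists with 1 array left out. In epididymis over SVF, the other structural genes went from 1 to 4 (loop), 3 (natural logarithms) and 2 (mean), and silencing genes from 0 to 1 (loop) and 2 (natural logarithms, mean). Signal over background, which limits low genes, is unknown.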

Other observations

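Genes known to silence germline promoters in somatic cells had medians near 0 in all 3 comparisons. Of 15 measured, 3 were called toward testis and 2 toward SVF, shares near the 20.7% and 16.0% of all named genes, and the median of -0.18 became 0.07 by the loop estimate. The 3 became 5 with the second array of the pair left out. The genes given next are single values and set nothing apart about the list. Max, the E-box binding partner of MGA, read -2.11 and -2.60 in testis over SVF (mean -2.36 ± 0.34), and E2f6 read -1.26 and -1.33 (mean -1.29 ± 0.05). Both were also lower in testis than in epididymis, at -1.63 ± 0.16 and -1.27 ± 0.15. Pcgf6, a subunit of the same complex, stood at 3.45 ± 0.40 in testis over SVF, and Uhrf1, a cofactor of maintenance DNA methylation, at 2.73 ± 0.51. In epididymis over SVF 0 of 15 were called by the size rule, and 1 of 15 passed 2-fold with either array left out. In that comparison Pcgf6 read 0.87 and 1.41, and Setdb1, a histone methyltransferase, read 1.56 and 0.73. These are bulk tissue ratios and do not show the level of any of these genes in spermatocytes.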
